A study of Macaca mulatta with 24 samples.

Results

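TESC, GADD45A, ARID5B, IFI30 and MTARC2 are 5 genes that stood high in rhesus monkey endometrium of conception cycles against endometrium of non-mated cycles on day 4. They are 5 of 12216 features tested, and 8 of the 20217 probes of the array. They hold ranks 1 to 5 by limma's moderated statistic for that day 4 difference, so they were chosen by their measured day 4 levels in both cycle types. The standard error in that statistic pools the spread within all 6 groups, so arrays of days 2 and 6 entered the choice through their spread, though not through their differences. Day 4 values are therefore given as a description, with no test, and days 2 and 6 supply the tests. The array's gene name column held TESC, GADD45A and ARID5B, with 4 probes. The probe of IFI30 and the 3 probes of MTARC2 carried other names there and were identified through their gene IDs in the RefSeq gene table.

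Endometrium, the lining of the uterus, was sampled from female rhesus monkeys (Macaca mulatta) of proven fertility, in mated cycles in which conception was proven and in normally ovulating cycles without mating. RNA of 24 samples was hybridised singly to Agilent 1-colour arrays, with 4 arrays in each of 6 groups: conception day 2, non-mated day 2, conception day 4, non-mated day 4, conception day 6 and non-mated day 6. The descriptions count the days from ovulation in both cycle types, whereas titles and source names of the conception samples count them from fertilization, and which event timed those samples is not settled by the labels. Whether each array stands for its own animal is not given in the labels, so the spread within a group may be technical, and no ages are given. Titles of 8 non-mated samples name day 2 where their other labels name day 4 or day 6, and the other labels were followed.

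The share of probes well above background was 53.3% to 71.5% on 21 arrays. On 3 non-mated arrays, called weak here, it was 4.33% (day 2 replicate 3), 37.9% (day 4 replicate 1) and 21.8% (day 4 replicate 2). The non-mated day 4 group thus holds 2 weak arrays of 4. Differences, list counts and correlations into which weak arrays enter are given with and without them, except within slides and scan days and under other processing settings. Markers of the labelled tissue were present: all 4 measured epithelial markers were well above background on at least 3 arrays of every group, and so were 5 to 7 of the 7 stromal markers. The arrays lay on 9 slides and were scanned on 2 days. Scan range was inferred from a spot flag: arrays with no spot marked as scaled up from a low scan were counted as single range. Of these, 5 came from conception cycles and 1 from a non-mated cycle.

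In the days after ovulation the endometrium passes under the influence of progesterone while a fertilised egg divides in the oviduct and then enters the uterus. The 5 genes belong to separate pathways. TESC encodes tescalcin, a calcium-binding protein of the calcineurin B homologous family that binds the sodium-proton exchanger of the plasma membrane. GADD45A is induced by DNA damage and other stress, in part through p53, and takes part in growth arrest and in stress kinase signalling. ARID5B is a DNA-binding protein of the AT-rich interaction domain family that recruits the histone demethylase PHF2. IFI30 is a lysosomal thiol reductase, induced by interferon gamma, that opens disulphide bonds of proteins before their peptides are presented on MHC class II. MTARC2 is a molybdenum enzyme of the mitochondrial outer membrane that reduces N-hydroxylated compounds with electrons passed on by CYB5R3 and CYB5B.

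Each level below comes from a probe of 60 bases, and the first 30 bases of each are printed to show what was hybridised, 5′ to 3′ as in the array design.
TESC A_01_P013663: tcctgcagcaccggtacacagccaaggctc
GADD45A A_01_P006806: cttaagtcaacttatttgtttttgccggga
ARID5B A_01_P007755: tggtgcatgaattctcaagtactgtatttc
ARID5B A_01_P007754: atcagggcatatacaaaagggtttgttaaa
IFI30 A_01_P011133: ctcggcacctgcttcttaccaactggaaaa
MTARC2 A_01_P016953: tgctctagcattatggaatctgggctgtac
MTARC2 A_01_P008521: agcggcagcaatacctcagcaaatccttat
MTARC2 A_01_P011659: attacacctttgttaagccatataaaagta
On the rheMac2 build the TESC probe lies at chr11:117983766-117983825 on the minus strand and the GADD45A probe at chr1:70474801-70474860 on the plus strand. The ARID5B probes lie end to end on the minus strand, at chr9:75178515-75178574 (A_01_P007755) and chr9:75178575-75178634 (A_01_P007754). The IFI30 probe lies at chr19:17756862-17756921 on the plus strand. The MTARC2 probes fall within 557 bases on the minus strand, at chr1:149536173-149536232 (A_01_P016953), chr1:149536598-149536657 (A_01_P008521) and chr1:149536101-149536160 (A_01_P011659). Whether these positions are coding or untranslated was not analysed here. No member probe was saturated on any array (0 of 24).

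A level is the log2 processed signal of a probe minus the 75th percentile of its array, so 0 is the array's 75th percentile. In whole tissue a lower level can mean fewer cells of a type or less RNA per cell, and these cannot be told apart. Levels are given per replicate, 1 to 4.

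TESC had levels of 1.02, 0.99, 1.12 and -0.04 at conception day 4, against -2.22, -1.73, -0.12 and -2.06 at non-mated day 4. The groups did not overlap, but the lowest conception array and the highest non-mated array, both from arrays that were not weak, lay close together. At day 2 TESC had -0.57, -0.33, 0.01 and -0.98 in conception cycles, against -0.74, -1.04, -0.28 and -0.90 in non-mated cycles. At day 6 it had 0.97, -0.71, 1.22 and -0.33 in conception cycles, against -0.38, -0.14, -0.74 and 0.26 in non-mated cycles. The groups overlapped on both days, and the conception day 6 arrays split into a high and a low pair.

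GADD45A had the widest spread of the 5 genes at conception day 4, with 0.70, 1.95, 1.68 and -0.69, against -2.97, -1.73, -1.03 and -1.22 at non-mated day 4. The groups did not overlap, and replicate 4 was again the lowest conception array. At day 2 the levels were -0.48, -0.87, -1.47 and -1.11 in conception cycles, against -2.04, -1.08, -0.28 and -0.16 in non-mated cycles. At day 6 they were -0.54, -0.46, 0.36 and 0.16 in conception cycles, against -0.99, -0.96, -1.45 and 0.24 in non-mated cycles. On day 6, 3 non-mated arrays lay below all conception arrays and the remaining one lay among them.

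ARID5B, read from the brighter of its probes, had 0.30, 0.42, -0.19 and -0.39 at conception day 4, against -2.31, -1.73, -0.81 and -1.27 at non-mated day 4. Its non-mated day 4 arrays lay below every other array of the gene except conception day 6, whose arrays reached down to -1.10. At day 2 it had -0.62, -0.61, -0.16 and -0.48 in conception cycles, against -0.41, -0.24, -0.28 and -0.16 in non-mated cycles. At day 6 it had 0.53, -0.58, -0.90 and -1.10 in conception cycles, against -0.48, -0.17, -0.41 and -0.31 in non-mated cycles. Conception day 6 was the most scattered ARID5B group (SD 0.73), and conception replicate 1 of that day was the highest array of all 24.

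IFI30 had 2.07, 1.61, 2.47 and 0.86 at conception day 4, against -0.45, -1.0, 0.87 and -0.04 at non-mated day 4. It was the one gene of the 5 whose day 4 groups overlapped, by the narrow margin of conception replicate 4 and non-mated replicate 3. At day 2 it had 0.93, 0.88, 1.10 and 0.51 in conception cycles, against 1.32, 0.39, -0.28 and 0.22 in non-mated cycles. At day 6 it had 1.80, 1.32, 2.16 and 0.20 in conception cycles, against 0.37, 1.21, 1.31 and 1.04 in non-mated cycles. On day 6, 3 conception arrays lay above all non-mated arrays and replicate 4 lay below them.

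MTARC2, read from the probe with the highest mean, had 0.32, 0.19, -0.40 and 0.32 at conception day 4, against -1.33, -1.73, -0.61 and -0.77 at non-mated day 4. At day 2 it had 0.10, 0.05, -0.04 and -0.78 in conception cycles, against 0.25, 0.35, -0.28 and 0.37 in non-mated cycles. At day 6 it had -0.31, -0.26, -0.14 and 0.09 in conception cycles, against -0.59, -0.01, 0.19 and 0.06 in non-mated cycles. Non-mated day 4 was low and the other 5 groups lay together, so MTARC2 did not peak at conception day 4: its conception day 4 mean of 0.11 ± 0.34 lay below its highest mean, that of non-mated day 2, 0.17 ± 0.31 (SD, n = 4 each), or 0.33 ± 0.07 without the weak array (n = 3).

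**Figure D1:**
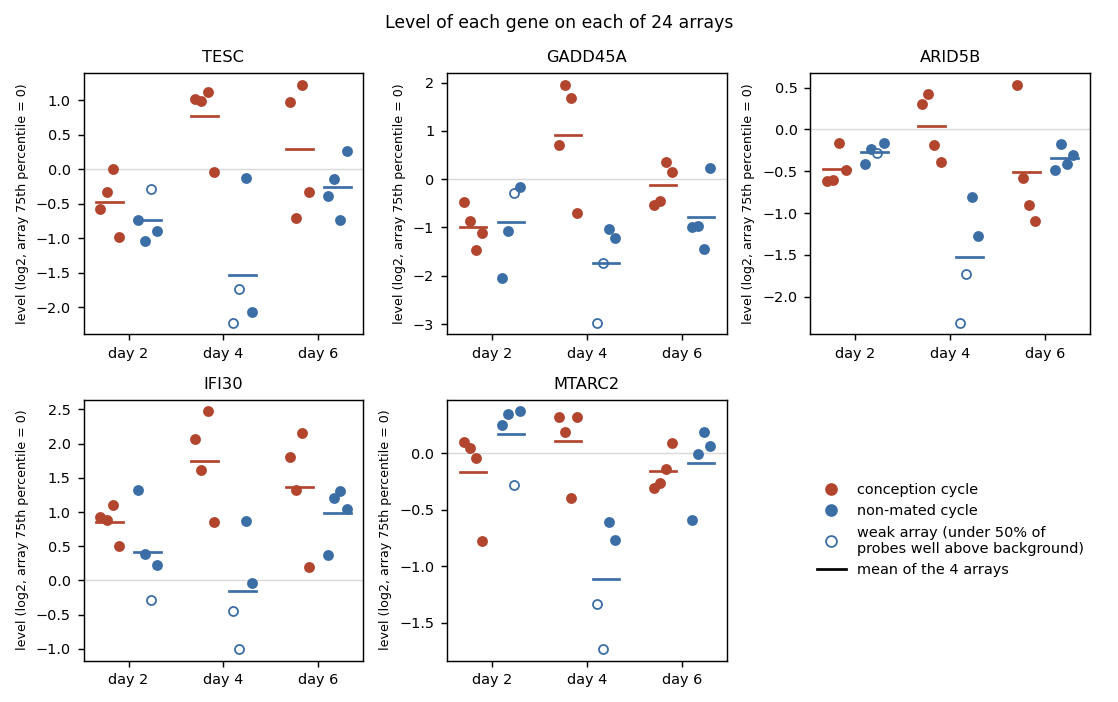
Level of each gene (log2 signal, the 75th percentile of the array being 0) on each of 24 arrays, for conception (red) and non-mated (blue) cycles at days 2, 4 and 6, with a line at the mean of each 4 arrays and open points for the 3 weak arrays. At day 4 the red points stand above the blue ones in every gene but IFI30, where 0.86 in conception and 0.87 in non-mated cycles meet, and for ARID5B and MTARC2 all 4 blue points of day 4 lie below the blue points of days 2 and 6.

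Group means give the order of the levels. TESC averaged 0.77 ± 0.54 at conception day 4 and -1.53 ± 0.96 at non-mated day 4, and GADD45A 0.91 ± 1.20 at conception day 4 and -1.74 ± 0.87 at non-mated day 4 (SD, n = 4 each, here and below). ARID5B averaged 0.03 ± 0.38 at conception day 4 and -1.53 ± 0.64 at non-mated day 4. IFI30 averaged 1.75 ± 0.69 at conception day 4 and -0.15 ± 0.79 at non-mated day 4, and MTARC2 0.11 ± 0.34 at conception day 4 and -1.11 ± 0.51 at non-mated day 4. In the probes used, conception day 4 was the highest of the 6 groups for 4 of the 5 genes, and non-mated day 4 was the lowest for all 5, with or without the weak arrays. For the other MTARC2 probes, A_01_P008521 and A_01_P011659, conception day 6 was the lowest group once the weak arrays were left out. In the order of the 6 group means, 2 of the 25 gaps between neighbours exceeded the larger of their SDs: those above non-mated day 4 for ARID5B and MTARC2. Without the weak arrays 2 gaps also did so: MTARC2 kept its gap above non-mated day 4, and TESC had one between conception day 2 and non-mated day 2. The remaining neighbours, conception day 4 and the group after it included, did not differ beyond their spread.

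The day 4 difference, conception minus non-mated, was 2.30 for TESC, 2.65 for GADD45A, 1.56 for ARID5B, 1.90 for IFI30 and 1.22 for MTARC2 on the log2 scale. Without the weak arrays it was 1.86, 2.03, 1.07, 1.33 and 0.80 in the same order, each smaller and each still positive. These values chose the genes. The median over all 12216 features was 0.02 with all arrays and 0.01 without the weak ones. Of all features, 0% passed limma's adjusted p threshold of 0.05 at day 4, where 744 (6.09%) had an unadjusted p under 0.05. Arrays of the day 4 groups did not overlap for 4 of the 5 genes, a pattern held on the higher side by 1.12% of all features, and nothing is read from it because the rule used this contrast. Just outside the 5 genes by the same statistic were TNFRSF1B at 1.33 with all arrays and 0.76 without the weak ones, RNF41 at 1.10 and 0.53, SENP2 at 1.15 and 0.50, GPX3 at 2.09 and 2.05, and SNRPB2 at 1.18 and 0.83. By size of the day 4 difference rather than by the statistic, GADD45A ranked 1, TESC 4, IFI30 9, ARID5B 26 and MTARC2 97.

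In the probes used, both cycle types contributed to the day 4 difference, to unequal degrees. In conception cycles the day 4 level minus the mean of days 2 and 6 was 0.86 for TESC, 1.46 for GADD45A, 0.52 for ARID5B, 0.64 for IFI30 and 0.27 for MTARC2. In non-mated cycles the same quantity was -1.04, -0.90, -1.22, -0.85 and -1.15. With all arrays the non-mated part was thus the larger one for TESC, ARID5B, IFI30 and MTARC2, and the conception part was the larger one for GADD45A. Without the weak arrays the non-mated values were -0.52, -0.18, -0.73, -0.39 and -0.81, so the non-mated part stayed the larger one for ARID5B and MTARC2, while for TESC and IFI30 the order turned and the conception part was the larger. For MTARC2 the conception value of 0.27 lay within the SD of its conception day 4 arrays, 0.34. It was 0.10 and 0.04 for its other probes, A_01_P008521 and A_01_P011659, whose conception day 4 means lay below those of day 2. The non-mated values of these probes were -0.70 and -0.77 with all arrays, and -0.11 and -0.08 without the weak ones. The conception day 4 arrays overlapped those of day 2 and of day 6 for all 5 genes. Among all features, 2.02% had conception day 4 arrays wholly above those of day 2 and 0.573% above those of day 6. The non-mated day 4 arrays lay below all non-mated arrays of days 2 and 6 for 2 of the 5 genes, ARID5B and MTARC2. For MTARC2 the margin to day 6 was narrow, -0.61 against -0.59, and in its other probes these groups overlapped. Among all features, 1.04% had non-mated day 4 arrays wholly below those of day 2 and 1.47% below those of day 6. Day 4 arrays chose the genes, so these are descriptions too.

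**Figure D2:**
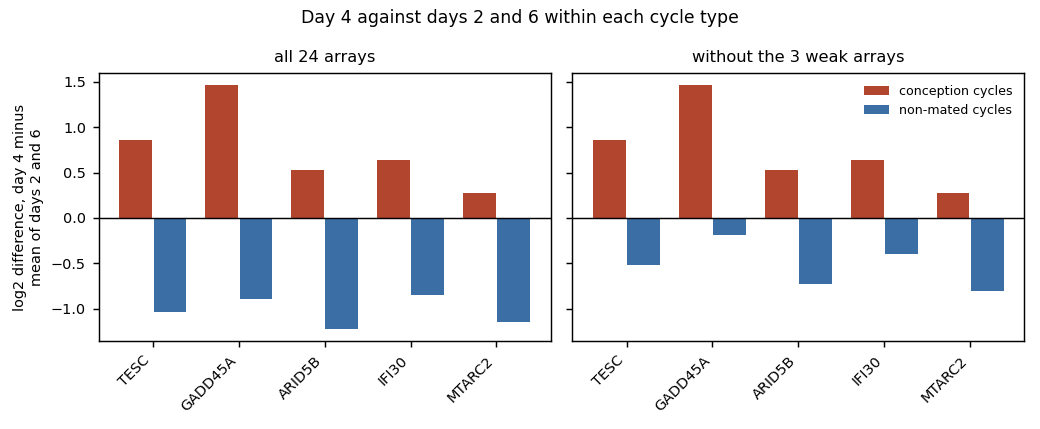
Day 4 mean minus the mean of the day 2 and day 6 means (log2) within conception (red) and non-mated (blue) cycles, with all 24 arrays at left and without the 3 weak arrays at right. Bars start at 0; the conception bars run from 0.27 (MTARC2) to 1.46 (GADD45A), and the non-mated bar of GADD45A shortens from -0.90 with all arrays to -0.18 without the weak ones.

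On the 2 weakest arrays most of these probes were not read above the floor of the array. On non-mated day 2 replicate 3 and on non-mated day 4 replicate 2, 7 of the 8 member probes sat at the array's commonest level, -0.28 and -1.73, which 66.2% and 54.9% of all probes shared. On non-mated day 4 replicate 1, the other weak array, the commonest level was -3.68, shared by 37.2% of probes, and no member probe sat there. On the 21 arrays that were not weak the commonest level lay between -5.58 and -8.29, and no member probe sat there. TESC, GADD45A and ARID5B (A_01_P007755) were well above background on 2 of the 4 non-mated day 4 arrays, and IFI30 and MTARC2 (A_01_P016953) on 3. In every other group but non-mated day 2, which had 3, each was well above background on 4 of 4.

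Slides and scan days were unevenly filled. Slides 2 and 3 each held 1 conception day 4 array and 1 weak non-mated day 4 array. Within them the differences were 3.23 and 2.72 for TESC, 3.66 and 3.68 for GADD45A, 2.61 and 2.15 for ARID5B, 2.52 and 2.61 for IFI30, and 1.65 and 1.92 for MTARC2. On scan day 1, which held no weak day 4 array, the differences were 1.63, 1.62, 0.75, 1.24 and 0.65 in the same order of genes, all positive. On scan day 2, where both non-mated day 4 arrays were weak, they were 2.97, 3.67, 2.38, 2.56 and 1.79. The non-mated day 4 arrays that were not weak shared no slide with a conception array, so for them slide and cycle type cannot be told apart. Conception day 4 replicate 4, the lowest of its group for 4 of the 5 genes, was the group's one array counted as single range. The part of the scan range in these values was not tested.

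The differences at and between days 2 and 6 did not enter the choice of genes, and they were tested in a limma fit of these 16 arrays, with p-values adjusted over all 12216 features. None of the 5 genes passed the threshold in any of the 5 comparisons: conception against non-mated cycles at day 2 and at day 6, day 6 against day 2 in each cycle type, and the difference between cycle types in that change. The background is the same, with 0% of features called in each comparison, although 333 (2.73%), 400 (3.27%), 751 (6.15%), 472 (3.86%) and 510 (4.17%) features in that order had an unadjusted p under 0.05. Leaving out the weak array of these days, non-mated day 2 replicate 3, gave 230 called features between days 2 and 6 of conception cycles, none of the 5 genes among them (smallest limma adjusted p 0.337, GADD45A). Of the 25 tests on the 5 genes 0 had an unadjusted p under 0.05, the smallest being 0.0756.

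At day 6 the differences, conception minus non-mated, were 0.54 ± 0.42 for TESC (SE; 95% interval -0.36 to 1.44) and 0.67 ± 0.45 for GADD45A (-0.29 to 1.63). IFI30 differed by 0.38 ± 0.43 (-0.52 to 1.29). ARID5B and MTARC2 lay on the other side of 0, at -0.17 ± 0.32 (-0.86 to 0.51) and -0.07 ± 0.29 (-0.69 to 0.56). All 5 had a limma adjusted p of 1.00, and the intervals leave room for differences of either sign. Within slide 1, with 2 conception arrays and 1 non-mated array, the 5 differences were all positive: TESC 0.52, GADD45A 0.49, ARID5B 0.45, IFI30 1.19 and MTARC2 0.30. Within scan day 1 they were 0.89, 1.46, -0.71, -0.08 and -0.11, and within scan day 2 they were 0.19, -0.12, 0.37, 0.85 and -0.02, so that GADD45A, ARID5B and IFI30 changed sign between scan days.

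At day 2 TESC differed by 0.27 ± 0.42 (SE; 95% interval -0.62 to 1.17, limma adjusted p = 0.80) and IFI30 by 0.44 ± 0.43 (-0.47 to 1.35, adjusted p = 0.72). GADD45A differed by -0.09 ± 0.45 (-1.05 to 0.87, adjusted p = 0.94) and ARID5B by -0.19 ± 0.32 (-0.88 to 0.49, adjusted p = 0.81). MTARC2 differed by -0.34 ± 0.29 (-0.97 to 0.28, adjusted p = 0.71). Without the weak array the differences were 0.42 for TESC, 0.11 for GADD45A, -0.20 for ARID5B, 0.21 for IFI30 and -0.50 for MTARC2, and the sign of GADD45A turned. Within slide 4 the differences were 0.59, 0.40, -0.37, 0.52 and -0.28. Within scan day 1, which held the weak array, they were 0.11, -1.07, -0.10, 0.84 and -0.46. Within scan day 2 they were 0.44, 0.88, -0.29, 0.05 and -0.23, with GADD45A of opposite sign between the scan days.

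**Figure D3:**
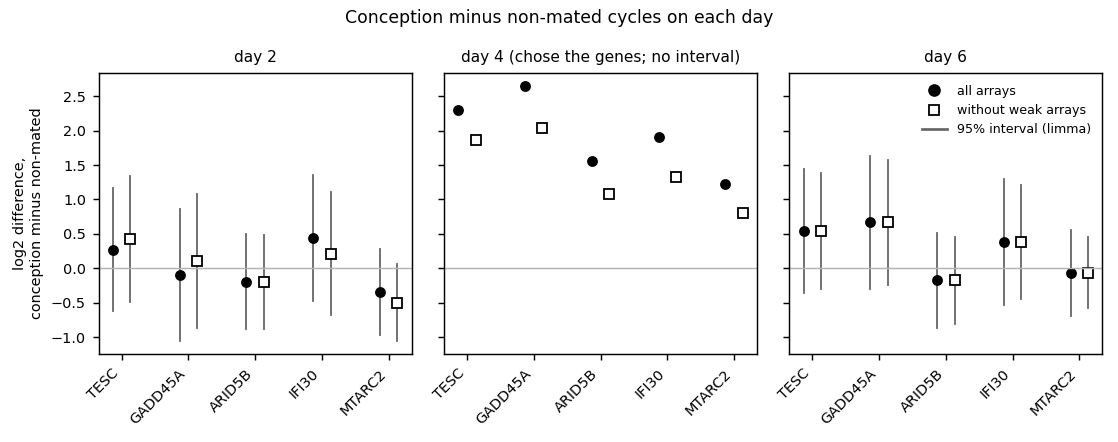
Log2 difference, conception minus non-mated, for the 5 genes at days 2, 4 and 6, with all arrays (filled circles) and without the 3 weak arrays (open squares); lines are limma's 95% intervals, drawn for days 2 and 6 alone. All intervals at days 2 and 6 cross 0, whereas the day 4 points, which chose the genes, run from 1.22 (MTARC2) to 2.65 (GADD45A) with all arrays.

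Between days 2 and 6 of conception cycles GADD45A had the largest of the 5 differences, 0.86 ± 0.45 (SE; day 6 minus day 2, 95% interval -0.10 to 1.82, limma adjusted p = 0.80), followed by TESC at 0.76 ± 0.42 (-0.14 to 1.65, adjusted p = 0.81) and IFI30 at 0.51 ± 0.43 (-0.40 to 1.42, adjusted p = 0.89). ARID5B and MTARC2 lay near 0, at -0.05 ± 0.32 (-0.74 to 0.64) and 0.02 ± 0.29 (-0.61 to 0.64), both with an adjusted p of 0.99 or more. In non-mated cycles the same difference was 0.49 ± 0.42 for TESC, 0.10 ± 0.45 for GADD45A, -0.07 ± 0.32 for ARID5B, 0.57 ± 0.43 for IFI30 and -0.26 ± 0.29 for MTARC2. Without the weak array it was 0.64, 0.30, -0.07, 0.34 and -0.41 in the same order. The interaction, conception change minus non-mated change, was 0.27 ± 0.60, 0.76 ± 0.64, 0.02 ± 0.46, -0.06 ± 0.61 and 0.28 ± 0.41 for TESC, GADD45A, ARID5B, IFI30 and MTARC2, with limma adjusted p of 0.91, 0.83, 0.99, 0.98 and 0.86. Without the weak array the interactions were 0.12, 0.56, 0.02, 0.17 and 0.43, and the sign of IFI30 turned. No difference between cycle types in the change over these days was detectable.

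ARID5B and MTARC2 were each read by several probes. In the array design both ARID5B probes belong to 1 transcript, whereas MTARC2 probe A_01_P008521 is assigned to another transcript record than the other MTARC2 probes. The 2 ARID5B probes correlated at r = 0.95 over the 21 arrays that were not weak (a description; arrays share slides and groups). The second ARID5B probe (A_01_P007754) had a day 4 difference of 1.08 with all arrays and 1.32 without the weak ones, and conception day 4 was also its highest group. Its duplicate spots differed by a median of 0.90 on the log2 scale, against 0.27 for the probe used and 0.20 for all probes well above background, so its single readings are less precise. The MTARC2 probes did not read alike. A_01_P008521 and A_01_P011659 correlated with each other at r = 0.76, but with the probe used, A_01_P016953, at 0.25 and 0.11. Their day 4 differences were 0.68 and 0.74 with all arrays and 0.14 and 0.11 without the weak ones, against 1.22 and 0.80 for the probe used. The day 4 difference of MTARC2 in arrays that were not weak thus rests mainly on 1 of its 3 probes.

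**Figure D4:**
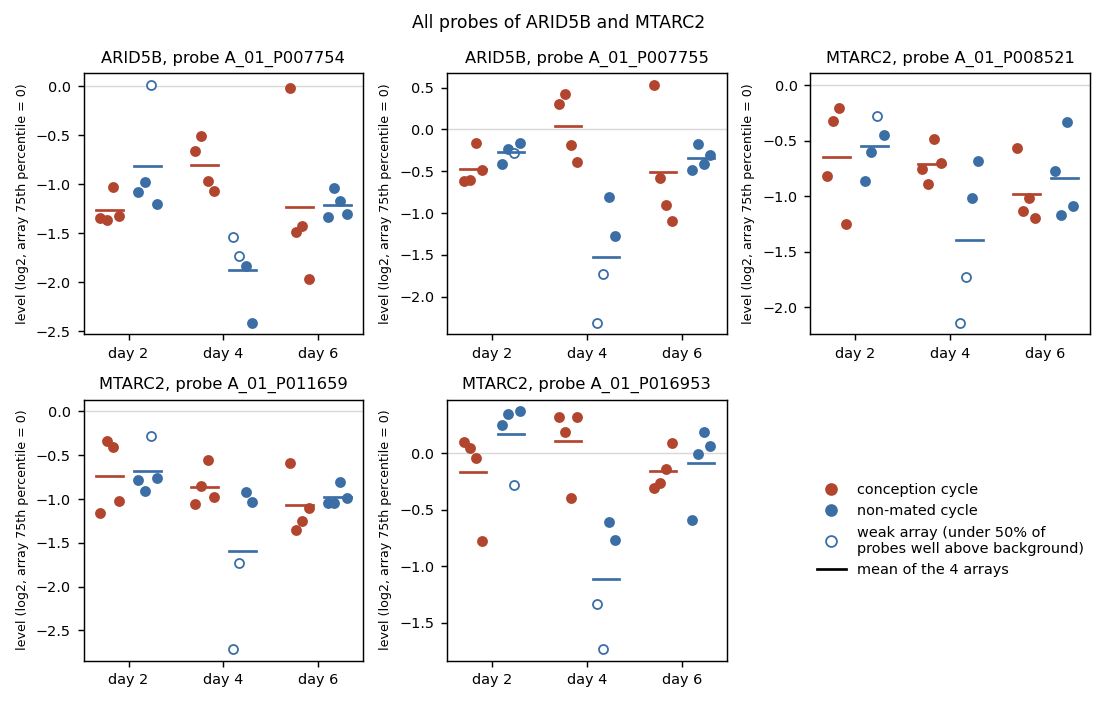
Levels (log2, array 75th percentile at 0) of both ARID5B probes and the 3 MTARC2 probes on 24 arrays, conception red and non-mated blue, open points for weak arrays and lines at group means. For MTARC2 probes A_01_P008521 and A_01_P011659 the filled blue points of day 4 lie close to the red ones, with differences of 0.14 and 0.11 without the weak arrays, although for A_01_P008521 the point at -1.02 is below all red ones of day 4. For A_01_P016953 both lie below, with a difference of 0.80.

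The genes varied together to different degrees. Over the 21 arrays that were not weak, TESC and IFI30 correlated at r = 0.83, TESC and GADD45A at 0.69, TESC and ARID5B at 0.55, GADD45A and IFI30 at 0.51, ARID5B and IFI30 at 0.50 and GADD45A and ARID5B at 0.34. Over all 24 arrays these 6 values were 0.83, 0.77, 0.71, 0.58, 0.65 and 0.58 in the same order. MTARC2 correlated less with TESC, GADD45A and IFI30 than any other of the genes did, at 0.16 with TESC, 0.14 with GADD45A and 0.13 with IFI30, and it reached 0.37 with ARID5B. Over all 24 arrays these 4 values were 0.49, 0.42, 0.53 and 0.69, each higher than without the weak arrays. The arrays share groups, slides and scaling, and the genes were chosen for a common day 4 difference, so these values are descriptions.

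Among 7781 named genes, the levels most like those of TESC over the 21 arrays were those of IFI30 (r = 0.83), CCN5 (0.81), a secreted matricellular protein, and FGFR4 (0.81), a fibroblast growth factor receptor. Over all 24 arrays these had r of 0.83, 0.32 and 0.66. For GADD45A they were PYCARD (0.79), the inflammasome adaptor, WLS (0.74), which carries Wnt ligands to the cell surface, and FERMT3 (0.73), an integrin activator of blood cells, with 0.60, 0.62 and 0.42 over all 24. For ARID5B they were PDE4B (0.83), a cyclic AMP phosphodiesterase, IGF2R (0.78), the receptor that sorts mannose 6-phosphate ligands to lysosomes, and HS3ST3B1 (0.76), a heparan sulphate sulphotransferase. With the weak arrays IGF2R had 0.87 and PDE4B 0.74, but HS3ST3B1 had -0.05. For IFI30 they were SEMA3B (0.86), a secreted semaphorin, TESC (0.83) and USP42 (0.80), a deubiquitinase, with 0.79, 0.83 and 0.61 over all 24. For MTARC2 the values were lower: DAZAP2 at 0.64, BLVRB, a biliverdin reductase, at 0.62, and ATRAID at 0.60, with 0.57, 0.60 and 0.64 over all 24.

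The pathways around the genes gave 56 measured genes in 5 lists, of which 0 passed limma's threshold at day 2, 4 or 6, as was the case for all features. At day 4, 50.9% of all features lay higher in conception cycles, and 51.0% without the weak arrays. Of the 20 measured genes of the p53 and stress-induced growth arrest list, 12 lay higher and 8 lower at day 4, with a median difference of 0.32. Leaving out the weak arrays, 11 lay higher, with a median of 0.14. GADD45G, the paralogue of GADD45A, had a day 4 difference of 2.08 ± 0.76 (SE; limma adjusted p = 0.69), and 2.01 without the weak arrays. GADD45B, the other paralogue, chosen for mention after its values were seen, had -0.34 ± 0.54, and -1.14 without the weak arrays. The p53-induced TP53INP1 had 0.76 ± 0.67, PCNA, the replication clamp that GADD45 proteins bind, 0.37 ± 0.59, and SESN2, a sestrin, 0.81 ± 0.50. TP53INP1 had 0.53, PCNA -0.03 and SESN2 0.18 without the weak arrays. At day 2, 13 of the 20 lay higher with or without the weak array, and at day 6, 9 lay higher.

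Around TESC, 6 of 11 measured genes of the calcineurin B homologous and sodium-proton exchange list lay higher at day 4, with a median of 0.28, and 0.01 without the weak arrays. CHP1, a homologue of TESC, had a day 4 difference of -0.10 ± 0.42 (SE), and the calcineurin catalytic subunits PPP3CA, PPP3CB and PPP3CC had -0.01 ± 0.46, 0.57 ± 0.40 and 0.66 ± 0.36. CHP1 had -0.13 and the catalytic subunits -0.16, 0.01 and 0.24 without the weak arrays, PPP3CB then lying near 0. Around ARID5B, 4 of 8 measured genes of the ARID family list lay higher, with a median of 0.03, and 5 without the weak arrays, with a median of 0.07. There ARID3B had -1.01 ± 0.81, the histone demethylases KDM5A and KDM5B had 0.60 ± 0.46 and 0.64 ± 0.39, and JARID2, a cofactor of Polycomb repressive complex, had 0.56 ± 0.34. ARID3B turned to 0.68, KDM5A had 0.0058, KDM5B 0.39 and JARID2 0.27 without the weak arrays. PHF2 was not among the genes measured here. Neither list stood away from all features by its count.

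Around MTARC2, 4 of 9 measured genes of the molybdenum enzyme list lay higher at day 4, with a median of -0.64, and 3 without the weak arrays, with a median of -0.46. CYB5B, which hands electrons to MTARC2, had a day 4 difference of 0.54 ± 0.49 (SE) with all arrays and -0.39 without the weak ones. GPHN and MOCS2, which build the molybdenum cofactor, had 0.38 ± 0.46 and 0.91 ± 0.37 with all arrays, and -0.50 and 0.43 without the weak ones. AOX1, an aldehyde oxidase, had -0.64 ± 1.41, and -1.60 without the weak arrays. At day 6 AOX1 had -3.41 ± 1.20 (limma adjusted p = 1.00), the largest in size of the 9 measured genes. On that day GPHN had -0.91, MOCS2 -0.01 and CYB5B 0.40, and 4 of the 9 lay higher.

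Around IFI30, all 8 measured genes of the lysosomal proteolysis and MHC class II list lay higher at day 4, with a median of 0.92, and 7 of the 8 without the weak arrays, with a median of 0.79. CTSH, a lysosomal protease, had a day 4 difference of 1.54 ± 0.71 (SE), MAMU-DMA, which loads peptides on class II molecules, 1.13 ± 0.57, MAMU-DRA, a class II chain, 0.99 ± 0.34, and LAMP1, a lysosomal membrane protein, 0.84 ± 0.50, each with a limma adjusted p of 0.69. Without the weak arrays these were 1.42, 0.75, 0.84 and 0.33. At day 2, 7 of the 8 lay higher with or without the weak array, with medians of 0.68 and 0.24. Of all features, 41.3% lay higher at day 2 with all arrays and 51.8% without the weak one. At day 6, 5 of 8 lay higher, with a median of 0.07. Most of the 31 symbols of this list had no probe by that name, and CTSS did not pass the filter on dim probes.

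IFI30 is expressed by antigen-presenting cells, so macrophage markers are given beside it. At day 4, 4 of the 7 measured macrophage and dendritic cell markers lay higher in conception cycles, and 7 of 7 without the weak arrays, with medians of 0.33 and 0.94. The mean level of the 7 markers ran from -1.27 to -0.92 over the conception day 4 arrays, against -2.01 to -0.07 over the non-mated day 4 arrays, and -2.01 to -1.98 over those that were not weak. At day 2 it ran from -1.83 to -0.69 in conception cycles, against -1.91 to 0.42 in non-mated cycles, the highest being the weak array. On that array and on non-mated day 4 replicate 2, at -0.07, 66.2% and 54.9% of all probes sat at the floor. IFI30 was not well above background on either. At day 6 the marker mean ran from -1.72 to -0.76 in conception cycles, against -2.01 to -0.96 in non-mated cycles. With all arrays the day 4 differences were 1.14 for CD68, 0.98 for CD14, 0.77 for LYZ, 0.33 for AIF1, -0.08 for CSF1R, -0.39 for TYROBP and -0.55 for FCER1G. With the weak arrays left out they were 1.13, 0.85, 0.50, 1.34, 0.58, 1.48 and 0.94 in the same order. None of the 7 passed limma's threshold with all arrays (smallest adjusted p 0.69), and C1QC did not pass the filter on dim probes. Other immune and vascular markers also lay higher at day 4 once the weak arrays were left out: 6 of 7 natural killer cell markers, 3 of 3 T and B cell markers and 4 of 4 endothelial markers, against 3, 2 and 2 with all arrays. So did 6 of 7 stromal markers (median 0.71), against 5 with all arrays (median 0.32), and the red cell marker HBB, at 2.00 against 1.42. Of the 4 epithelial markers 1 lay higher without the weak arrays (median -0.26), against 4 with all arrays (median 0.25), and of the 4 smooth muscle markers 1, against 2. Several immune and vascular markers were dim, such as FCER1G, KLRC1, CD8A and TEK, with mean levels of -4.30, -3.83, -3.68 and -3.62. The floor was -7.84 and -7.96 on the non-mated day 4 arrays that were not weak, against -6.32 to -5.63 at conception day 4. Well above background on at least 3 non-mated day 4 arrays were 3 macrophage, 5 natural killer, 1 T and B and 3 endothelial markers. At conception day 4, which had no weak array, it was 6, 6, 3 and 4. The parts of the floor and of cell composition in these and the IFI30 values were not tested.

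**Figure D5:**
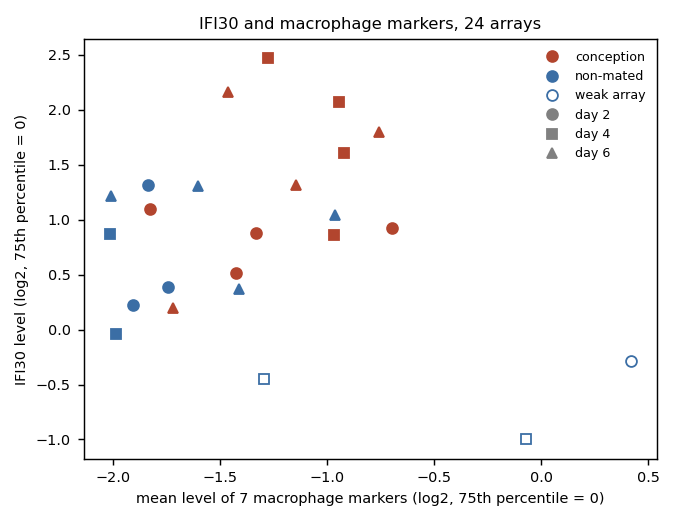
IFI30 level against the mean level of 7 macrophage markers (both log2, array 75th percentile at 0) on 24 arrays, conception red and non-mated blue, with symbols for days 2, 4 and 6 and open symbols for weak arrays. The 4 conception day 4 arrays lie between -1.27 and -0.92 on the marker axis and between 0.86 and 2.47 for IFI30, whereas the weak non-mated arrays have the lowest IFI30 levels, 2 of them at the highest marker means. On those 2 arrays IFI30 was not well above background, and 66.2% and 54.9% of all probes sat at the floor of the array. The part of the floor in those marker means was not tested.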

How the data were processed

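The authors deposited 1 scanner file per array, with a fluorescence intensity per spot that Agilent Feature Extraction had corrected for background, per the file headers (version 9.5.3.1; the submitters' processing notes name 10.7.3.1). A table of log2 values deposited by the authors tracked the differences between arrays in the scanner files at r from 0.976 to 0.999. Its column medians ran from -0.406 to 2.85, its baseline is unknown, and it served as an alternative. The deposited spot flags (other) marked control spots, outliers and probes well above background. Control spots were left out, and so were outliers unless every spot of the probe was marked.

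Spots of a probe were averaged, log2 signals were set against the array's 75th percentile, and 12780 probes were kept, each well above background on 3 or more arrays of some group. The probe with the highest mean stood for a gene. Days 2 and 6 (16 arrays, 12 residual degrees of freedom) and all 6 groups were fitted with limma 3.58.1 (R 4.3.3, lmFit, eBayes; two-sided, Benjamini-Hochberg, threshold 0.05), and the fit was tested on simulated data. Files were read with pandas 2.3.3 and numpy 2.4.6 in Python 3.11.15, and plots drawn with matplotlib 3.10.9. Of 276 pairs of arrays 0 were identical. The number of arrays limits the precision.

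The genes, lists and tests were chosen with earlier results of these data known. Named are the 5 genes with all probes, the 3 genes most correlated with each, the 5 next by the day 4 statistic, and of each pathway list the genes past the threshold or else the 4 with the highest mean level. Coordinates are the array files' own. RefSeq supplied names alone, for 3677 probes through a gene ID. Alternatives tried were leaving out the weak arrays or each replicate, normexp background correction, quantile normalization, no filter on dim probes, slide or replicate number as a block, the value table, 1 fit of all groups, and the mean of a gene's probes.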

Additional observations from a re-analysis of the deposited data

Results flagged for a closer look

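Among 48 groups of 4 arrays (8 probes in 6 groups), 3 held an array whose distance from its nearest neighbour passed Dixon's critical share of the group's range, where chance gives about 1 in 20. TESC on conception day 4 replicate 4 lay at -0.04, with the other 3 arrays between 0.99 and 1.12. ARID5B probe A_01_P007754 on conception day 2 replicate 3 lay at -1.03, above the next array at -1.32. MTARC2 probe A_01_P016953 on conception day 2 replicate 4 lay at -0.78, below the next array at -0.04.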

How the results depend on the processing

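Over all settings the 5 genes gave 650 tested values at days 2 and 6, of which 0 had a limma adjusted p under 0.05 (smallest 0.337), while the sign of several small differences turned. Without the weak arrays GADD45A at day 2 was 0.11 and the IFI30 interaction 0.17. With normexp GADD45A at day 2 was 0.10, MTARC2 between days 2 and 6 of conception cycles -0.14 and the IFI30 interaction 0.15. Quantile normalization moved the median of all features to 0.49 at day 2, 0.48 between days 2 and 6 of non-mated cycles, -0.59 for the interaction and 0.41 at day 4, against -0.15, -0.18, 0.09 and 0.02. Under it GADD45A, ARID5B and MTARC2 at day 2 were 1.04, 0.95 and 0.80, ARID5B between days 2 and 6 of conception cycles was 0.015, ARID5B and MTARC2 between days 2 and 6 of non-mated cycles were 1.09 and 0.91, and the interactions of TESC, GADD45A, ARID5B, IFI30 and MTARC2 were -0.87, -0.43, -1.07, -1.21 and -0.88. It gave day 4 differences of 3.15 for TESC, 3.60 for GADD45A, 2.45 for ARID5B, 1.92 for IFI30 and 2.09 for MTARC2. With slide as a block ARID5B was 0.060 at day 2 and 0.022 at day 6, MTARC2 0.23 at day 6, GADD45A -0.50 between days 2 and 6 of non-mated cycles and the ARID5B interaction -0.038. With the mean of all probes MTARC2 between days 2 and 6 of conception cycles was -0.22. The cause of these turns was not tested.

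Leaving out 1 array at a time, the day 4 differences ran from 2.08 to 2.77 for TESC, 2.24 to 3.18 for GADD45A, 1.30 to 1.80 for ARID5B, 1.62 to 2.25 for IFI30 and 1.01 to 1.39 for MTARC2. At days 2 and 6 the ranges that crossed 0 were GADD45A at day 2 (-0.48 to 0.15) and over non-mated cycles (-0.28 to 0.34), ARID5B at day 6 (-0.52 to 0.022), over conception cycles (-0.40 to 0.15) and in its interaction (-0.33 to 0.22), MTARC2 at day 6 (-0.23 to 0.026) and over conception cycles (-0.19 to 0.10), and the interactions of IFI30 (-0.36 to 0.33) and TESC (-0.042 to 0.60). Features called between days 2 and 6 of conception cycles numbered 0 with all 16 arrays, 230 without the weak array, non-mated day 2 replicate 3, and 2 in the fit of all 6 groups. At day 6 the fit of all 6 groups called 1 feature. Leaving out 1 array gave 0 to 230 calls between days 2 and 6 of conception cycles, 0 to 14 at day 6 (14 without conception day 6 replicate 1) and 0 to 1 at day 4 (1 without non-mated day 4 replicate 3).

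Whether replicate numbers pair the arrays is not settled by these values. Deviations of same-numbered arrays correlated at a median of 0.02 over 60 pairs of arrays, 20 of them over 0.1, within a range of -0.67 to 0.63. Pairs of other numbers had a median of -0.01. With 4 numbers to match, 11 of 24 arrays had their highest mean correlation with the arrays of their own number. Replicate number also followed slide and scan day. All conception replicates 3 lay on slide 7 and all conception replicates 4 on slide 8. In every group but non-mated day 6, replicates 1 and 2 were scanned on scan day 2 and replicates 3 and 4 on scan day 1. Number, slide and scan day can therefore not be told apart in these correlations. With replicate number as a block 0 features were called in every comparison. Each group holds each number once, so the differences themselves, such as 0.54 for TESC at day 6, could not change with this block.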
